A study of Ovis aries with 6 samples.

Results

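CD247 and CD79B encode signalling chains of the antigen receptors of T cells and B cells, and their transcripts were followed in sheep milk before and after linseed was added to the diet. The members were taken by gene symbol, whatever their level: CD247 (older name CD3Z) was 1 transcript, NM_001009417.1, and CD79B was 2, XM_012186321.2 and XM_004013025.3, in all 3 of the 49705 transcripts in the table. The RNA came from milk somatic cells, the mixture of epithelial and immune cells that is shed into milk, of 3 Comisana ewes. The linseed group held 3 libraries from ewes fed grass, hay and a concentrate with 20% extruded linseed (dry matter) for 3 weeks. The control group held 3 libraries from the same ewes, which had before that eaten grass hay and a commercial concentrate for 3 weeks, starting at day 90 of lactation. Since every ewe received linseed second, diet and the time between samplings cannot be told apart, and the milk of each ewe was a separate sample.

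CD247 is the zeta chain, a small membrane protein with almost no outer part and a long inner tail. It pairs with the CD3 chains and the T cell receptor, and in NK cells with the receptors CD16, NKp46 and NKp30. CD79B pairs with CD79A to form the signalling part of the B cell receptor, beside membrane immunoglobulin. Both carry tyrosine motifs known as ITAMs in their tails, which are phosphorylated when the receptor is engaged and then recruit kinases of the SYK and ZAP70 family. Lymphocytes are a regular part of the cells in milk, together with macrophages, neutrophils and epithelial cells.

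The libraries held 4941935, 5978026 and 19912996 reads for linseed sheep 1, 2 and 3 and 22644050, 8805705 and 10602801 for control sheep 1, 2 and 3, as solved from the steps between the RPKM values (RPKM is the number of reads on a transcript per kilobase of its length, scaled to the reads of the library). The levels of leukocyte genes and of milk protein genes differed widely between libraries. The summed level of 6 measured pan-leukocyte genes (CD53, CORO1A, LCP1, LAPTM5, ARHGDIB and ITGB2) ranged from 1472 to 3783 RPKM with linseed and from 108 to 3494 RPKM in controls, with control sheep 1 the lowest. The summed level of 12 measured milk protein genes, made by epithelial cells, ranged from 12940 to 355976 RPKM with linseed and from 42603 to 444889 RPKM in controls. In bulk RNA such as this, fewer cells of a type and less RNA per cell cannot be told apart.

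All 3 ewes had less CD247 with linseed. It had 0.407, 5.04 and 12.0 RPKM in linseed sheep 1, 2 and 3, which rested on 2, 30 and 237 reads, against 2.40, 25.3 and 89.1 RPKM in control sheep 1, 2 and 3, which rested on 54, 222 and 940 reads. The groups overlapped, because control sheep 1 lay below linseed sheep 2 and 3. Sheep 3 had the highest level and sheep 1 the lowest under both diets, so the ewes kept their order. The means were 5.80 ± 5.81 RPKM with linseed and 38.9 ± 44.9 RPKM in controls (SD, n = 3 each), and each SD was as large as its mean or larger.

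Within a sheep the size of the difference was alike. The linseed level was 0.170, 0.199 and 0.134 of the control level in sheep 1, 2 and 3, that is 5.89, 5.02 and 7.45 times lower. The 95% intervals of these folds were 1.55 to 49.9 in sheep 1, 3.42 to 7.62 in sheep 2 and 6.45 to 8.63 in sheep 3 (exact conditional binomial, from the reads). These intervals cover counting error only, and that of sheep 1 is wide because linseed sheep 1 held 2 reads. Ordered by level, control sheep 3 was followed by control sheep 2, linseed sheep 3, linseed sheep 2, control sheep 1 and linseed sheep 1, and the 95% exact Poisson intervals of neighbours in this order did not meet.

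**Figure D1:**
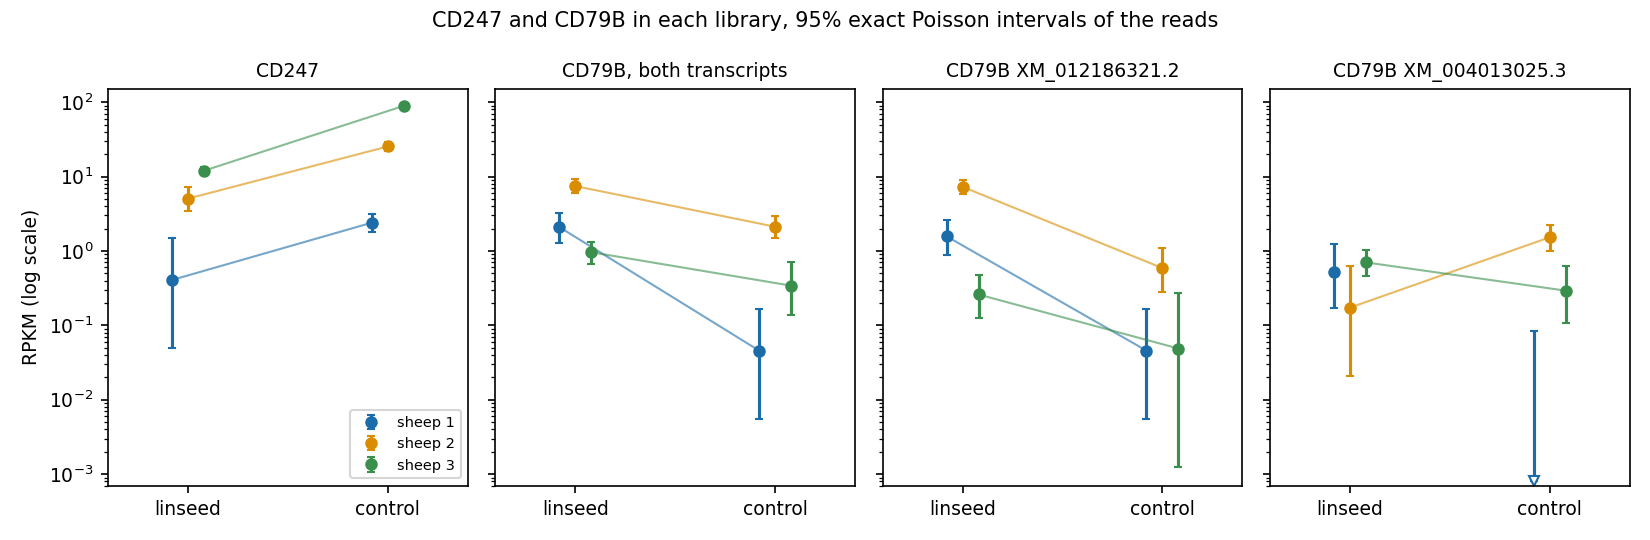
RPKM on a log axis of CD247, of CD79B summed over both transcripts, and of each CD79B transcript, with linseed left of control, 1 colour per sheep, lines joining the libraries of a sheep and bars for 95% exact Poisson intervals of the reads; an open triangle marks a library listed at 0, with the upper limit of its interval. CD247 lies lower with linseed in all 3 sheep, and summed CD79B lies higher in all 3, at 0.960 to 7.44 RPKM with linseed and 0.0457 to 2.11 RPKM in controls.

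The difference did not pass the test across all transcripts. On the log2(RPKM + 1) scale, on which low levels give smaller changes, CD247 changed by -1.27, -2.12 and -2.80 in sheep 1, 2 and 3. The fitted change was -2.06 ± 1.14 (SE), with an adjusted p of 0.388 in limma with Benjamini-Hochberg adjustment. That fit called 0 of 15891 tested transcripts in either direction (0%), while 2464 had an unadjusted p under 0.05. A change of this size or lower was seen in 324 tested transcripts (2.04%), and 26.2% of those tested were, like CD247, lower in all 3 sheep. That fit did not pair the 2 libraries of a ewe. A limma fit with the sheep as a block called 1.34% of tested transcripts lower and 1.28% higher, and neither CD247 nor CD79B was among them. In the blocked limma fit CD247 had an SE of 0.53 and an adjusted p of 0.0531, and CD79B an adjusted p of 0.119. The value of CD247 leaned on sheep 1 and on control sheep 3: it was -0.98 without control sheep 3, -1.18 without linseed sheep 1 and -3.34 without control sheep 1.

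The partners of CD247 in the T cell receptor did not all go the same way. CD3E, a CD3 chain, had 65.0, 42.6 and 94.6 RPKM in linseed sheep 1, 2 and 3, against 4.08, 105 and 328 RPKM in control sheep 1, 2 and 3. CD3D, another CD3 chain, had 1.36, 1.26 and 5.77 RPKM with linseed, against 0.185, 8.57 and 31.3 RPKM in controls. In both genes sheep 1 was higher with linseed while sheep 2 and 3 were lower. The fitted log2 changes were 0.21 ± 1.22 (SE) for CD3E and -1.11 ± 1.04 for CD3D, and that of CD3E turned to -0.19 after quantile normalization and to -0.08 with the trend with transcript length removed.

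The wider list of T cell receptor genes showed the same split by animal. Of its 24 genes 16 were matched and 13 were tested, and limma called 0 of them. In sheep 1, CD247 was the 1 gene of 13 that was lower with linseed. In sheep 2, 12 of 13 were lower, and in sheep 3 all 13 were. The median change of the list was 1.39, -0.90 and -1.91 in sheep 1, 2 and 3, beside 0.02, 0.03 and -0.22 over all tested transcripts. CD247 was thus the 1 tested member lower in all 3 sheep, and 0 tested members were higher in all 3, against 26.2% lower and 23% higher over all tested transcripts. In sheep 1 this rested on 2 reads of CD247 with linseed and 54 in the control. CD5 and THEMIS, matched but below the minimum for testing, had lower listed values in all 3 sheep, and both were listed at 0 in linseed sheep 1 and 2. They had 25 and 77 reads over the 6 libraries. In control sheep 1 they had 0.0534 and 0.0401 RPKM, less than 1 read would give in the shallower library of linseed sheep 1. Sheep 1 therefore cannot show a decrease of these 2 genes.

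Among the other members of small p, CD28, the costimulatory receptor, had a fitted log2 change of -0.77 ± 0.60 (SE), and CD4, the coreceptor of helper T cells, had -1.11 ± 0.98. Both were higher in sheep 1 and lower in sheep 2 and 3. The summed level of the 16 matched genes was 123, 92.1 and 223 RPKM in linseed sheep 1, 2 and 3, against 10.96, 215 and 861 RPKM in control sheep 1, 2 and 3.

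**Figure D2:**
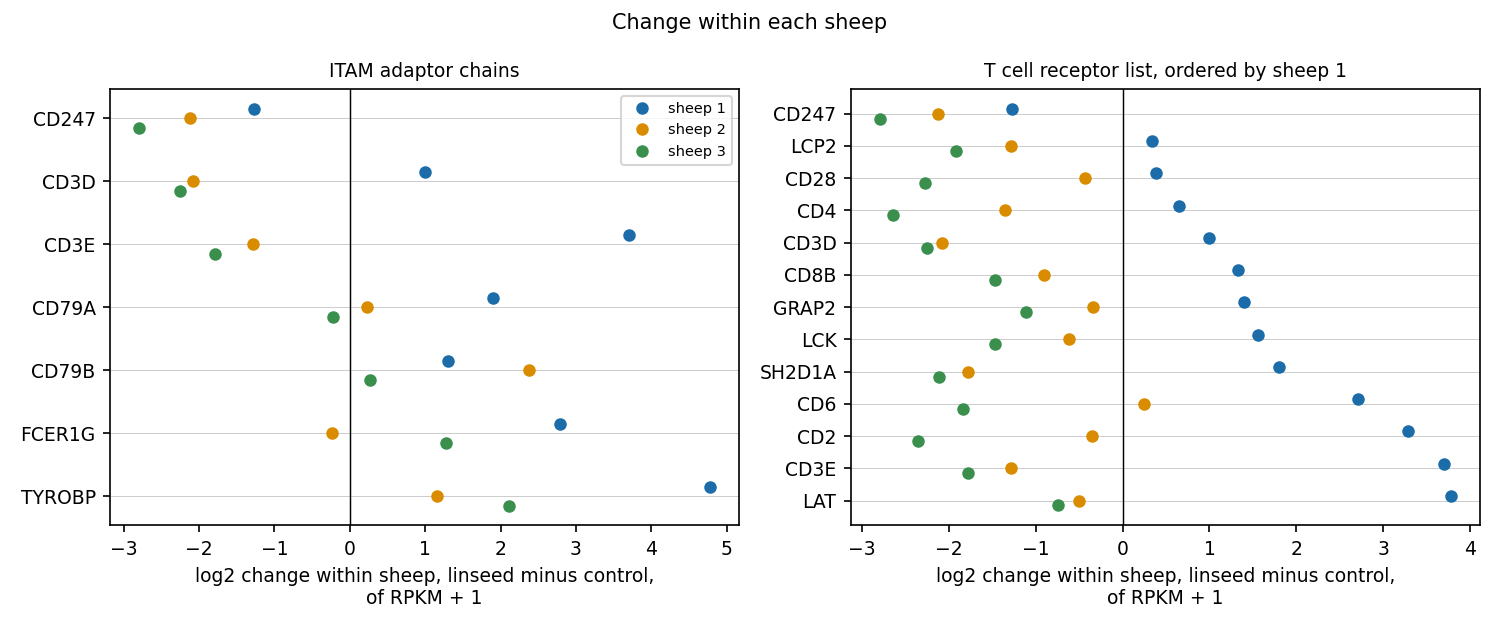
Log2 change of RPKM + 1 within each sheep, linseed minus control, for the 7 measured ITAM adaptor chains (left) and for the 13 tested genes of the T cell receptor list, ordered by their change in sheep 1 (right). CD247 is the 1 gene on the right with all 3 points below 0, and CD79B and TYROBP have all 3 points above 0 on the left.

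Set against CD3E in the same library, CD247 was lower with linseed, whereas set against CD3D it was not in every sheep. Its RPKM was 0.625%, 11.8% and 12.6% of that of CD3E in linseed sheep 1, 2 and 3, against 58.7%, 24.1% and 27.2% in control sheep 1, 2 and 3. The groups did not overlap on this ratio, and of all tested transcripts 2.14% had a level relative to CD3E that was lower with linseed without overlap. Linseed sheep 1 combined 424 reads of CD3E with 2 of CD247, whereas control sheep 1 combined 122 reads of CD3E with 54 of CD247. CD247 per CD3D was 0.299, 3.99 and 2.07 in linseed sheep 1, 2 and 3, against 12.9, 2.96 and 2.84 in control sheep 1, 2 and 3. On this ratio the groups overlapped, and sheep 2 was higher with linseed while sheep 1 and 3 were lower. CD3D had 8 reads in linseed sheep 1, 9 in linseed sheep 2 and 5 in control sheep 1. Both ratios were formed after the values were seen and are given without a test.

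Set against the pan-leukocyte genes, the control libraries lay close together. The log2 level of CD247 minus the mean log2 level of those 6 genes was -6.22, -4.69 and -4.67 in linseed sheep 1, 2 and 3, against -2.06, -2.23 and -1.81 in control sheep 1, 2 and 3. The difference of -3.16 had a two-sided exact permutation p of 0.1, the smallest that 20 splits of 3 against 3 can give. Those splits did not keep the libraries of a ewe paired, and the scale was chosen after the data were seen, so this p is a description. The groups did not overlap, as was the case for 21% of all tested transcripts on the same scale in this direction. The mean log2 level that was subtracted was 6.72, 7.28 and 8.36 in linseed sheep 1, 2 and 3. In control sheep 1, 2 and 3 it was 3.83, 6.95 and 8.30. CD247 alone had a fitted change of -2.06, so the rest of the -3.16 came from the higher pan-leukocyte level with linseed, mainly in sheep 1. The median fitted log2 change of the pan-leukocyte genes was 1.38.

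**Figure D3:**
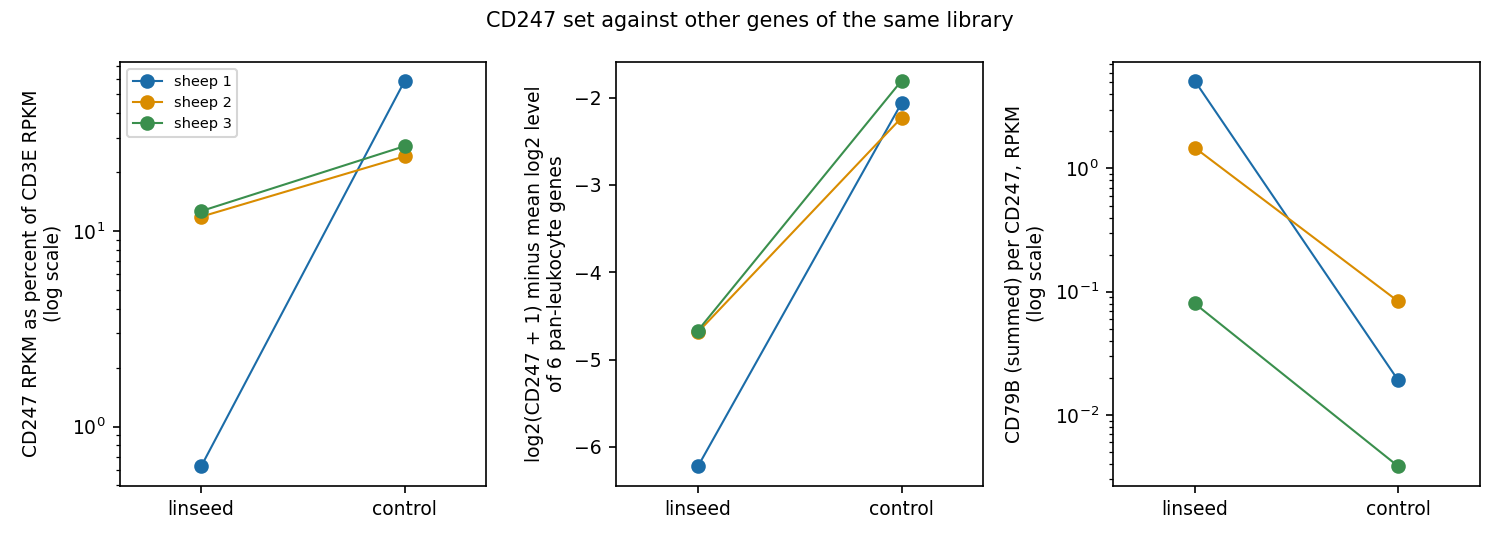
Within-library comparisons, with linseed left of control and lines joining the libraries of a sheep: CD247 as percent of CD3E (left, log axis), log2 CD247 minus the mean log2 level of 6 pan-leukocyte genes (middle), and CD79B summed over both transcripts per CD247 (right, log axis). In the left and middle panels every linseed point lies below every control point, and on the right each sheep is higher with linseed.

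NK cells also use CD247, and their genes likewise differed between sheep. Of 23 genes of NK receptors and cytotoxic granules 15 were matched and 13 tested, with 0 called, 0 lower in all 3 sheep and 0 higher in all 3. Over all tested transcripts 26.2% were lower and 23% higher in all 3 sheep. Of the receptors that signal through CD247, NCR1 (NKp46) had 0.439, 0 and 0.436 RPKM with linseed against 0.0479, 0 and 17.6 RPKM in controls of sheep 1, 2 and 3, so its level lay mainly in control sheep 3. FCGR3A (CD16), which neutrophils and macrophages also carry, had 6.495, 6.28 and 170 RPKM with linseed, against 2.05, 9.03 and 185 RPKM in controls. NCR3 (NKp30) had between 1.23 and 1.45 RPKM with linseed, against 0.0192, 1.23 and 1.68 RPKM in controls. FCGR3A was highest in sheep 3 under both diets.

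The other NK list members of smallest p went both ways. The granule protease gene GZMM had a fitted log2 change of 1.18 ± 0.69 (SE) and the granule peptide gene GNLY 1.65 ± 1.33. The death ligand gene FASLG had -1.46 ± 0.86 and the receptor gene CD244 -1.30 ± 0.77. In sheep 1, 2 and 3 the list had medians of 1.13, -0.46 and -1.89.

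The genes whose pattern over the 6 libraries was most like that of CD247 included a receptor of T cells. Among 5474 other genes with a symbol, the highest Pearson correlations of log2(RPKM + 1) were those of NOL8 (0.98), GIN1 (0.98), IL7R (0.98), SGK1 (0.98) and CCDC25 (0.98). Over 6 points that share depth and cell content high correlations come easily, so these are a description. IL7R, the receptor for interleukin 7 on T cells, had 1.14, 3.59 and 11.4 RPKM in linseed sheep 1, 2 and 3, against 2.08, 20.1 and 125 RPKM in control sheep 1, 2 and 3, in the same order of libraries as CD247. SGK1, a kinase, had 6.15, 11.7 and 25.9 RPKM with linseed and 13.1, 37.4 and 126 RPKM in controls. CD3D correlated at 0.92 (rank 124) and CD3E at 0.68 (rank 1865).

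In the list of lymphocyte cytokine and homing receptors, which holds IL7R, 14 of 18 genes were tested. Limma called 0, and 4 were lower and 1 higher in all 3 sheep, beside 26.2% lower and 23% higher over all tested transcripts. IL7R had a fitted log2 change of -2.02 ± 1.16 (SE), and CD40LG, the T cell ligand that helps B cells, had -1.17 ± 0.57. S1PR1, a receptor for leaving lymph nodes, had -1.03 ± 0.74 and CD69, an activation marker, -1.59 ± 0.89. IL2RG, the chain shared by several interleukin receptors, was the 1 gene higher in all 3 sheep, at 1.97 ± 1.11. The median change over the tested genes of that list was 0.88 in sheep 1, -0.49 in sheep 2 and -1.86 in sheep 3.

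CD79B was higher with linseed where CD247 was lower, and its level was low throughout. Summed over both transcripts it had 2.09, 7.44 and 0.960 RPKM in linseed sheep 1, 2 and 3, from 20, 86 and 37 reads, against 0.0457, 2.11 and 0.341 RPKM in control sheep 1, 2 and 3, from 2, 36 and 7 reads. Each sheep was higher with linseed, while the groups overlapped, since control sheep 2 lay above linseed sheep 1 and 3. The means were 3.50 ± 3.46 RPKM with linseed and 0.833 ± 1.12 RPKM in controls (SD, n = 3 each).

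The folds within a sheep were uneven. Linseed was 45.8 times the control level in sheep 1, 3.52 times in sheep 2 and 2.81 times in sheep 3. The 95% exact conditional binomial intervals were 11.1 to 404 in sheep 1, where the control library held 2 reads, 2.36 to 5.35 in sheep 2 and 1.24 to 7.48 in sheep 3. By level, linseed sheep 2 stood first and clear of the rest. The Poisson intervals of control sheep 2 (1.48 to 2.93 RPKM) and linseed sheep 1 (1.28 to 3.23 RPKM) overlapped, as did those of every lower pair of neighbours in the order linseed sheep 1, linseed sheep 3, control sheep 3 and control sheep 1.

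The reads of CD79B were divided between its transcripts differently from library to library. XM_012186321.2 and XM_004013025.3 had solved lengths of 1934 and 1935 nt, and with lengths so close most reads may fit both, so the division depends on how the authors assigned shared reads. XM_012186321.2 had 1.57, 7.27 and 0.260 RPKM with linseed, from 15, 84 and 10 reads, against 0.0457, 0.587 and 0.0488 RPKM in controls, from 2, 10 and 1 reads. XM_004013025.3 had 0.523, 0.173 and 0.701 RPKM with linseed, from 5, 2 and 27 reads, against 1.53 and 0.292 RPKM in control sheep 2 and 3, from 26 and 6 reads, and it was listed at 0 in control sheep 1, where 3 reads would be 0.0685 RPKM.

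In sheep 2 the transcript with most reads was not the same under both diets. XM_012186321.2 held 97.7% of the CD79B reads in linseed sheep 2 (95% exact binomial interval 91.9 to 99.7) and 27.8% in control sheep 2 (14.2 to 45.2). Sheep 3 showed no such difference at this depth, with 27.0% (13.8 to 44.1) with linseed and 14.3% (0.361 to 57.9) in the control. In sheep 1 the share was 75.0% (50.9 to 91.3) with linseed, and the 2 reads of the control were both of XM_012186321.2. The share therefore overlapped between the diets, and the sum is the measure that does not turn on the division.

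**Figure D4:**
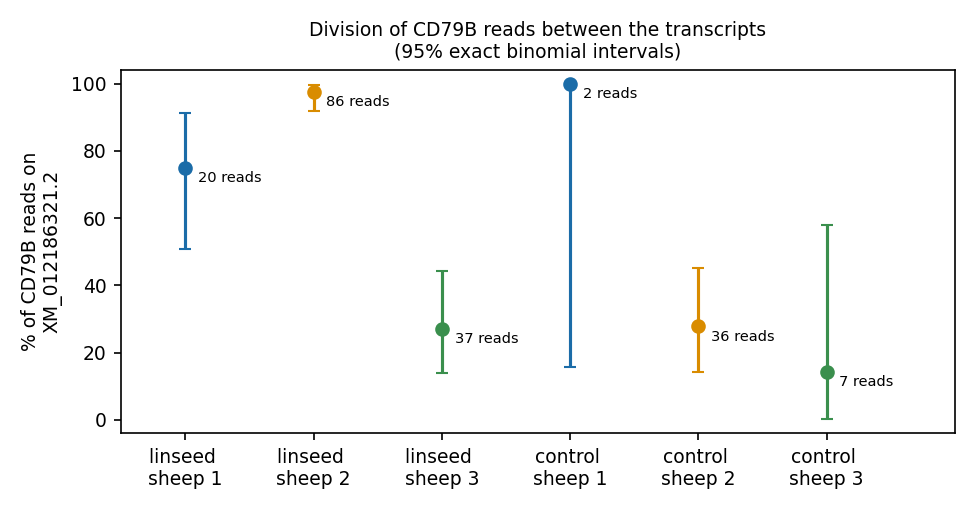
Percent of CD79B reads assigned to XM_012186321.2 in each library, with 95% exact binomial intervals and the number of CD79B reads beside each point. Linseed sheep 2 stands at 97.7%, linseed sheep 3, control sheep 2 and control sheep 3 stand between 14.3% and 27.8%, and control sheep 1 rests on 2 reads.

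CD79B did not pass the test either. Of its transcripts, XM_012186321.2 had a mean of 1.63 RPKM over the libraries and was tested, and XM_004013025.3 had 0.536 RPKM, below the minimum of 1, and was not. XM_012186321.2 passed that minimum through linseed sheep 1 and 2, the libraries above 1 RPKM. The within-sheep log2 changes of XM_012186321.2 were 1.30, 2.38 and 0.26, and the fitted change was 1.31 ± 0.65 (SE), with an adjusted p of 0.350 in limma. Changes as high or higher were seen in 1612 tested transcripts (10.1%). Linseed sheep 2 carried much of it: the change was 0.58 without that library.

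Summed over both transcripts the fitted change was 1.18 ± 0.67, with an adjusted p of 0.394 in limma. XM_004013025.3 alone had a mean log2 change of -0.03, with sheep 2 at -1.11 and sheep 1 and 3 at 0.61 and 0.40. Relative to the pan-leukocyte genes, XM_012186321.2 differed by 0.22 (two-sided exact permutation p = 0.9, with ewes not kept paired). The values were -5.36, -4.24 and -8.03 in linseed sheep 1, 2 and 3 and -3.76, -6.28 and -8.23 in control sheep 1, 2 and 3. On that scale sheep 1 was lower with linseed and sheep 2 and 3 were higher.

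**Figure D5:**
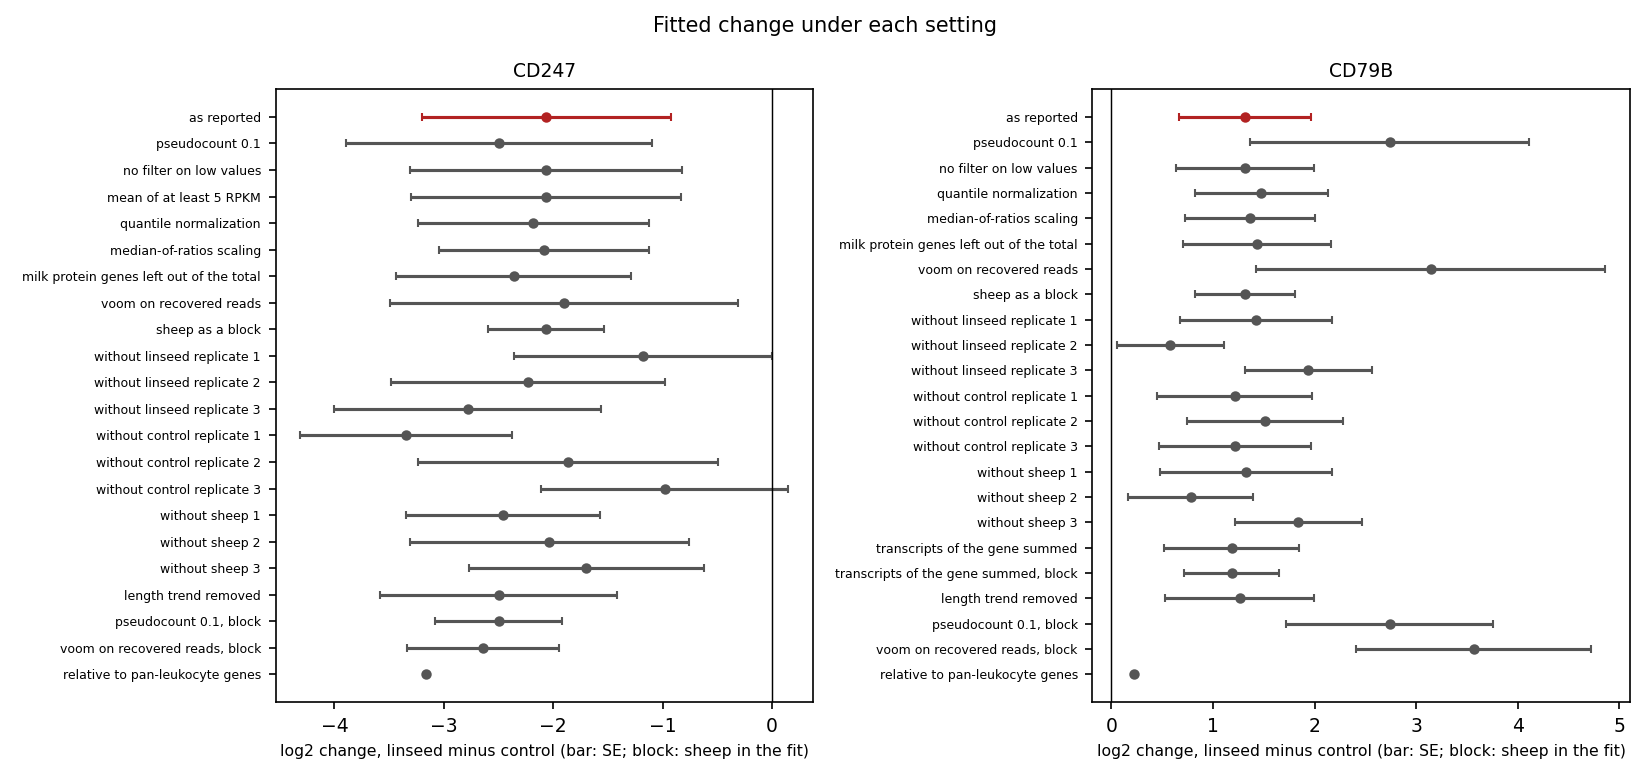
Fitted log2 change, linseed minus control, of CD247 (left) and of CD79B (right, XM_012186321.2 unless summed) under each setting, with bars for the SE and the value as reported in red. All points of CD247 lie below 0, from -3.34 to -0.98, and all points of CD79B lie above 0, from 0.22 to 3.56.

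CD79A, the partner of CD79B, had more reads and did not go one way in the 3 sheep. It had 3.96, 7.65 and 3.48 RPKM in linseed sheep 1, 2 and 3, against 0.324, 6.40 and 4.23 RPKM in control sheep 1, 2 and 3. Its within-sheep log2 changes were 1.91, 0.23 and -0.22, and its fitted change was 0.64 ± 0.72 (SE). Summed CD79B was 52.8%, 97.3% and 27.6% of CD79A in linseed sheep 1, 2 and 3, against 14.1%, 33.0% and 8.06% in control sheep 1, 2 and 3. Each sheep had more CD79B per CD79A with linseed, and the groups overlapped at control sheep 2.

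Of the other genes that define B cells, some were near the floor of detection, and MS4A1 and JCHAIN had more reads over the 6 libraries. The complement receptor gene CR2 had 7 reads over the 6 libraries, and the B lineage factor genes PAX5 and EBF1 had 1 read each. MS4A1 (CD20) had 144 reads, at 0.195, 2.58 and 1.82 RPKM with linseed against 0.0851, 1.20 and 0.409 RPKM in controls of sheep 1, 2 and 3. It was higher in all 3 sheep, with a fitted log2 change of 0.61 ± 0.54. In sheep 1 both MS4A1 values were near the floor and rested on few reads. Of 18 genes of B and plasma cell identity, 11 were matched and 4 tested, with 0 called. Of those tested 1 was higher and 1 lower in all 3 sheep, against 23% higher and 26.2% lower over all tested transcripts. The antibody joining chain gene JCHAIN, with 372 reads, was lower in all 3 sheep, by -0.05, -0.99 and -0.35 in sheep 1, 2 and 3. Its fitted log2 change was -0.46 ± 0.92. PRDM1 had -1.15 ± 0.76 and XBP1 -0.78 ± 0.66, and PRDM1 and XBP1 are expressed in many other cells.

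The list of B cell receptor signalling did not follow CD79B. Of 21 genes 10 were matched and 9 tested, with 0 called, 4 lower in all 3 sheep and 2 higher in all 3 (CD79B and the phosphatase gene PTPN6). Over all tested transcripts 26.2% were lower and 23% higher in all 3 sheep. DAPP1, an adaptor of this pathway, had 0.163, 0.472 and 0.709 RPKM in linseed sheep 1, 2 and 3, against 2.14, 2.43 and 2.97 RPKM in control sheep 1, 2 and 3. The groups of DAPP1 did not overlap, as in 7.83% of all tested transcripts in this direction, and its fitted log2 change was -1.29 ± 0.47 (SE), with an adjusted p of 0.272 in limma. MALT1 (-0.98 ± 0.80) and BCL10 (-0.81 ± 0.77), which act together downstream of both antigen receptors, were lower in all 3 sheep, and the tetraspanin gene CD81 had -0.81 ± 0.83. Many of these genes are also expressed in myeloid cells.

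The pattern of the CD79B transcript XM_012186321.2 over the libraries was closest to that of genes outside the B cell lists. This pattern depends on how reads were divided between the CD79B transcripts, and correlations of the sum were not computed. The 5 highest correlations with XM_012186321.2 were those of KLK7 (0.99), TTLL1 (0.98), KLK6 (0.98), DEGS2 (0.98) and RASSF10 (0.97), given as a description over 6 libraries. KLK6 and KLK7 are kallikrein-related proteases known from epithelia, and DEGS2 is a ceramide enzyme. KLK7 had 1.37, 4.52 and 0.238 RPKM in linseed sheep 1, 2 and 3, against 0.153 RPKM in control sheep 2, and was listed at 0 in control sheep 1 and 3. Like XM_012186321.2, it was above 1 RPKM in linseed sheep 1 and 2 only, and both passed the minimum mean of 1 RPKM through those libraries. The likeness is thus shaped in part by that minimum and by linseed sheep 2. All 5, like CD79B, were highest in linseed sheep 2. CD79A correlated with XM_012186321.2 at 0.59 (rank 743), and CD247 correlated with that transcript at -0.38.

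The ratio of CD79B to CD247 was higher with linseed in each sheep. Summed CD79B per CD247 was 5.14, 1.47 and 0.0803 in linseed sheep 1, 2 and 3, against 0.0191, 0.0834 and 0.00383 in control sheep 1, 2 and 3. CD79B exceeded CD247 in linseed sheep 1 and 2 and in no other library. The groups overlapped, because control sheep 2 lay above linseed sheep 3, and no test was made of this ratio.

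The ITAM chains used by myeloid cells were higher in level than CD247 and CD79B in every library. CD3E, also an ITAM chain of lymphocytes, exceeded FCER1G in control sheep 3 only. TYROBP, the partner of TREM2 and of NK receptors, had 1431, 1592 and 2531 RPKM in linseed sheep 1, 2 and 3, against 51.0, 711 and 585 RPKM in control sheep 1, 2 and 3. The groups of TYROBP did not overlap, as in 13.3% of all tested transcripts in this direction, and its fitted log2 change was 2.69 ± 0.92 (SE), with an adjusted p of 0.264 in limma. FCER1G, the shared chain of Fc receptors, had 111, 133 and 530 RPKM with linseed, against 15.2, 156 and 218 RPKM in controls, and its fitted change was 1.28 ± 0.99. Of the 8 ITAM chain genes 7 were measured, with 0 called, 2 higher in all 3 sheep (CD79B and TYROBP) and 1 lower (CD247).

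Markers of the other cells of milk moved beside these values. The neutrophil list had 5 measured genes, 4 with higher values under linseed throughout the 3 sheep, S100A9 having the smallest p (log2 change 2.28 ± 0.58). The other gene, LTF, is also on the milk protein list and had a fitted change of -1.39 ± 1.45. The list summed to 2148 to 3447 RPKM with linseed and 819 to 1566 RPKM in controls, where LTF alone had 1146 RPKM in control sheep 1. The macrophage list had 6 tested genes, 3 with higher and 1 with lower values under linseed throughout the 3 sheep, TREM2 having the smallest p (3.73 ± 0.83). MRC1 (-1.61 ± 0.78) was the lower gene, and MSR1 (-0.45 ± 0.81) also had a fitted change below 0. The 7 matched genes summed to 776 to 1380 RPKM with linseed and 92.1 to 557 RPKM in controls. CD68 alone had 368 to 923 RPKM with linseed and 70.4 to 376 RPKM in controls. TREM2 passed limma with the sheep as a block (adjusted p = 0.0401) and not without it (0.263). The epithelial list had 6 measured genes, 4 with lower values under linseed throughout the 3 sheep, EPCAM having the smallest p (-1.82 ± 1.04). KRT8 (1.76 ± 1.10) and LALBA (0.39 ± 1.29) had fitted changes the other way. The list summed to 4738 to 79357 RPKM with linseed and 17714 to 266284 RPKM in controls, nearly all of it from the milk protein genes CSN2, CSN3 and LALBA. Over all tested transcripts 23% were higher and 26.2% lower in all 3 sheep. Of the 8 dendritic cell genes 3 were matched, none reached the minimum, and their summed level was at most 0.304 RPKM with linseed and 0.651 RPKM in controls. The part of these cell types in the values of CD247 and CD79B was not tested.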

How the data were processed

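Milk somatic cell RNA of 3 ewes was sequenced under both diets. The authors deposited 1 table of RPKM values for 49705 RefSeq transcripts, and Trimmomatic 0.33 was used, per the submitters' processing notes. The aligner, counter and genome build: not given in the sources used here. Groups came from the letter in each sample title read with the series design. Same-numbered libraries carry one animal identifier, which pairs them, and their deviations from the mean of their group had correlations of 0.18, 0.25 and 0.40 for sheep 1, 2 and 3. Each library is 1 milk sample of 1 ewe.

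Gene names were taken from RefSeq (assembly ARS-UI_Ramb_v3.0), with accession versions ignored: 15836 of 49705 transcripts (31.9%) matched, and genes without a match, CD3G and PTPRC among them, were not analysed here. RefSeq lists 3 CD79B transcripts, of which 2 matched. No other gene overlaps CD247 or CD79B there. Library totals, lengths and reads were solved from the RPKM steps (tolerance 0.002 reads), and recovered reads made up 99.43% to 99.83% of the totals. Intervals and floors (3 reads) cover counting error only. Values were tested as log2(RPKM + 1) with limma 3.58.1 in R 4.3.3 (trend, Benjamini-Hochberg, adjusted p under 0.05 called) over the 15891 transcripts whose mean reached 1 RPKM, without the sheep as a block; the fit was tested on simulated data. Lists enter each gene by its most abundant transcript. Named genes were all ITAM chains, up to 5 members of smallest p per list, and the 5 genes most correlated with each member; other named genes were chosen after their values were seen. The members and lists were chosen with earlier results of these data known. Some listed genes were left out of the lists and are not reported here.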

Additional observations from a re-analysis of the deposited data

How the results depend on the processing

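CD247 stayed lower and CD79B higher with linseed under each of the 21 and 22 settings tried for them, and neither passed limma under any. Leaving out 1 library gave -3.34 to -0.98 for CD247, 0.58 to 1.94 for CD79B and 0 called transcripts; leaving out both libraries of a sheep gave -2.46 to -1.70, 0.78 to 1.84 and 0. With the sheep as a replicate block, limma called 416 transcripts in place of 0 (1.34% of those tested lower and 1.28% higher). The blocked SE was 0.53 for CD247 and 0.50 for CD79B, and their adjusted p values were 0.0531 and 0.119, within ranges over all settings of 0.0531 to 0.917 and 0.0892 to 0.917. The block changed the call of neither gene. The other settings for the count of called transcripts (19 of 20) gave 0. CD79B rose most with the scale of low values: 2.74 with a pseudocount of 0.1 RPKM and 3.14 with voom on recovered reads, or 3.56 with the block as well. It was smallest relative to the pan-leukocyte genes, at 0.22, and on that scale sheep 1 was lower with linseed. Leaving milk proteins out of the total moved the median of all tested transcripts to -0.28 in place of -0.12, with CD247 at -2.36 and CD79B at 1.43. The length trend, the pan-leukocyte scale and blocked fits other than the first were chosen after seeing the data. The planned ratio to PTPRC was not run, since no transcript matched, and CD79B has no value at a mean of at least 5 RPKM. Depth limits CD79B most, with 188 reads in all against 1485 for CD247.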
